A study of Mus musculus with 6 samples.

Results

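The nuclear genes for subunits of the mitochondrial respiratory chain were taken from the deposited table by their symbols: names starting with Nduf followed by a, b, c, s or v and a number, the 4 Sdh genes, and names starting with Uqcr, with Cox and a digit between 4 and 8, or with Atp5. The rule used no measured value. It found 84 of 24421 gene rows: 37 genes of complex I, 4 of complex II, 8 of complex III, 18 of complex IV and 17 of complex V. Of these, 75 had a mean of at least 1 FPKM (fragments per kilobase of gene, adjusted for how deeply each library was read) and entered the tests, which were run over all 10748 genes at that level: 35 of complex I, 4 of complex II, 8 of complex III, 12 of complex IV and 16 of complex V. Ndufa4 carries a complex I name and is listed there, although its protein is today counted as a subunit of complex IV. Ndufa4l2, Cox7a2l, Atp5s and Atp5sl match the symbol rule but are not core subunits.

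The libraries came from 3 murine pancreatic ductal adenocarcinoma cell lines, 6499c4, 6419c5 and 2838c3. Each line gave 1 library from cells treated with 250 nM G-1, an agonist of the membrane-bound oestrogen receptor GPER, for 16 hours, and 1 library from cells given the solvent DMSO as vehicle. All cells were at passages 15 to 20 and were grown in DMEM with fetal bovine serum. A difference between G-1 and vehicle therefore rests on 3 lines with 1 library of each treatment, and a difference between lines on 2 libraries per line, 1 of each treatment. The labels do not state whether the 2 libraries of a line came from separate cultures on separate days, so the spread behind the p-values may be technical.

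The respiratory chain sits in the inner membrane of mitochondria. Complex I (NADH dehydrogenase) and complex II (succinate dehydrogenase, also an enzyme of the tricarboxylic acid cycle) pass electrons to ubiquinone, complex III hands them to cytochrome c, and complex IV (cytochrome c oxidase) gives them to oxygen. Complexes I, III and IV pump protons, and complex V (ATP synthase) uses the proton gradient to make ATP. Most subunits are encoded in the nucleus, while a few central ones come from the mitochondrial genome, whose genes were not analysed here.

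The recovered reads in genes numbered between 5455990 and 8890821 per library, the lowest in 6419c5 with G-1 and the highest in 2838c3 with vehicle, and a count of 0 allows up to 3 reads. Keratins and other ductal markers summed to between 3458 and 6000 FPKM in every library. Not all markers of this list were high. Cldn4 averaged 0.48 FPKM and Sox9 1.71, and Epcam had 1.14 and 0.28 FPKM in G-1 and vehicle cells of 2838c3. The fibroblast list summed to at most 1.11 FPKM, the leukocyte and macrophage list to 3.38, the endothelial list to 2.15 and the acinar and islet list to 7.31.

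Ndufs5, an accessory subunit of complex I, was listed at 0 in all 6 libraries, while 35 of the 37 genes of complex I were tested. A processed pseudogene, BC002163, matches its whole coding sequence of 318 bases at 99.4% identity. The table gave 8 reads to BC002163 over all libraries. The first 150 bases of both sequences are shown because the whole coding sequences differ at 2 bases only, and whether the values of Ndufs5 are linked to the copy was not tested. They are from the GENCODE M21 annotation on GRCm38: Ndufs5 lies in chr4:123712710-123718202 on the minus strand and BC002163 in chr16:42955631-42955949 on the plus strand. Capitals mark the 2 differences, T81C and A105G, counted from the first base of the Ndufs5 start codon, with the base of Ndufs5 first.
Ndufs5: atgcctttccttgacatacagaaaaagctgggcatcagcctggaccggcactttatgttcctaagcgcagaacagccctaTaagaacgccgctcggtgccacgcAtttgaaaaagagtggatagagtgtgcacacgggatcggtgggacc
BC002163: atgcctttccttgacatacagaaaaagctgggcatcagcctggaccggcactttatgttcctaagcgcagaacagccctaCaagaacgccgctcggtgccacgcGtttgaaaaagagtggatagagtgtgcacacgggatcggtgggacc

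Atp5l, the g subunit of ATP synthase, had 16 reads over all libraries and a mean of 0.66 FPKM. It has 8 near-identical copies in the annotation, 7 of them pseudogenes, and the closest, Gm10221, is identical over its whole coding sequence. A near-identical copy here means at least 95% identity over at least 50% of the coding sequence. In all, 22 of the 84 genes have such a copy, among them Uqcr10, Uqcr11, Uqcrb, Ndufb4, Cox5b, Cox7b, Atp5g1, Atp5g2, Atp5k and Atp5o, and how the authors' counting treated reads that fit several places is not given. Values of these genes are therefore less certain than those of the other genes. Reads in exons that another annotated gene shares, on either strand, cannot be told apart either, because the sources do not state strand use or the counting rule. Of the 84 genes, 11 shared over 10% of their exon bases with other genes. The exons of Atp5o shared 43.8%, Gm15976 foremost, those of Ndufb6 39.0%, with Smim27 foremost, those of Ndufa13 30.0%, with Tssk6 foremost, those of Uqcrc2 19.7%, with Pdzd9 foremost, those of Ndufb9 shared 19.5%, with Gm49356 foremost, those of Cox5a 12.8%, with Gm26631 foremost, and those of Atp5j 12.7%, with Gabpa foremost.

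Beside Ndufs5, 7 genes were listed at 0 in every library, and all of them are isoforms known for other tissues or conditions. Cox6a2 and Cox8b are the heart and skeletal muscle forms of their subunits. Cox6b2, Cox7b2 and Cox8c are known from testis. Cox4i2 is the lung and hypoxia form of subunit 4, and Ndufa4l2 is the hypoxia-induced paralogue of Ndufa4. The counterparts Cox4i1, Cox6a1, Cox6b1, Cox7b, Cox8a and Ndufa4 were all tested. Cox7a1, the muscle isoform of subunit 7a, was the exception: it had 7.84 and 2.98 FPKM in G-1 and vehicle cells of 6499c4, 0 and 3.06 in 6419c5 and 0.32 and 0.64 in 2838c3, which is 23, 10, 0, 8, 1 and 2 reads in the same order. The highest level stood in 6499c4 with G-1, and the vehicle library of 6499c4 overlapped the range of 6419c5. Other muscle genes did not share this order: Ckm, Myh7 and Des were at or below 0.17 FPKM in every library, and Tnnt2 was highest in 6419c5, at 127 FPKM with G-1 and 137 FPKM with vehicle.

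The measured subunit genes were abundant. Their median level was 116.8 FPKM with G-1 and 104.8 FPKM with vehicle in 6499c4, 89.98 and 88.4 in 6419c5, and 88.7 and 79.9 in 2838c3. The median of all genes tested lay between 12.9 and 13.4 FPKM in the same libraries. By complex, the median of the mean levels was 76.3 FPKM for complex I, 111 for complex II, 130 for complex III, 121 for complex IV and 182 for complex V.

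**Figure D1:**
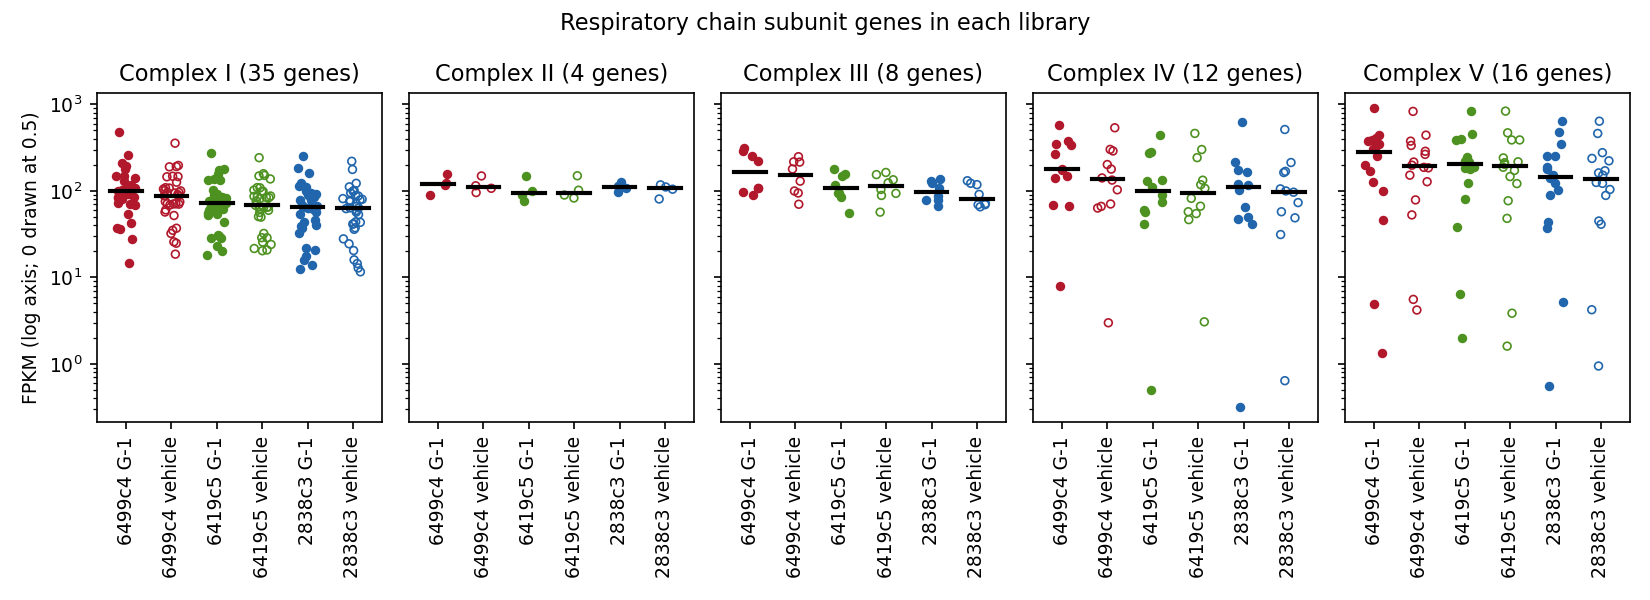
FPKM (log axis) of each tested subunit gene in each of the 6 libraries, 1 panel per complex; filled points are G-1 libraries, open points vehicle libraries, and bars mark the median of the complex. The genes of complex II lie within a narrow band, and those of complexes I, IV and V spread widely. The medians of complexes I, II, III and IV are highest in both libraries of 6499c4. In complex II the 6499c4 vehicle median is 110.7 FPKM and the 2838c3 G-1 median 110.3.

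Atp5b, the catalytic beta subunit of ATP synthase, was the most abundant member. It had 897 and 828 FPKM in G-1 and vehicle cells of 6499c4, 830 and 834 in 6419c5 and 650 and 638 in 2838c3, so both 2838c3 libraries lay below the other 4. Cox4i1, the ubiquitous form of the largest nuclear subunit of complex IV, followed with a mean of 525 FPKM. Ndufa4 averaged 304 FPKM. Among the genes of complex I, Ndufb4, an accessory subunit of the membrane arm, had the lowest mean level at 19.5 FPKM. Complex II spanned the smallest range, with means between 94.8 FPKM for Sdha, the flavoprotein that oxidises succinate, and 124 FPKM for Sdhb, the iron-sulfur subunit. In complex III, means lay between 68.0 FPKM for Uqcrfs1, the Rieske iron-sulfur protein, and 183 FPKM for Uqcrq, a small subunit. The lowest means in complexes IV and V belonged to Cox7a1, at 2.47 FPKM, and to Atp5s, at 1.77 FPKM.

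The c subunits that form the rotating ring of ATP synthase are encoded by Atp5g1, Atp5g2 and Atp5g3, whose precursors differ in their import sequences. Atp5g3 supplied most of their summed FPKM in every library, 72.6% and 71.8% in G-1 and vehicle cells of 6499c4, 76.6% and 75.6% in 6419c5 and 81.3% and 76.3% in 2838c3. Atp5g1 supplied 18.7% and 16.9% in 6499c4, 15.9% and 15.0% in 6419c5, and 8.62% and 11.3% in 2838c3. The share of Atp5g1 was thus lowest in both 2838c3 libraries.

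G-1 was compared with vehicle to see whether the GPER agonist altered these genes in the 3 lines. No subunit gene passed the adjusted threshold of 0.05, and the differences were small and mostly upward: 65 of 75 fitted differences were positive, with a median of 0.11 on the log2(FPKM + 1) scale, where that of all genes tested was -0.01. In limma with the lines as block and Benjamini-Hochberg adjustment, 0 of 75 were called, with a smallest adjusted p of 0.302 for Ndufa4, and 0.0279% of all genes tested were called. At an unadjusted p under 0.05 there were 20 of 75, against 10.1% of all genes tested. A separate count-based fit (limma-voom on the recovered reads) called 6, all higher with G-1, against 1.54% of all genes tested. These were Ndufa3, Ndufa4, Ndufb2, Uqcrq, Cox8a and Atp5k, with adjusted p between 0.0015 and 0.0459, and all are short, between 292 and 545 bases of gene length.

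Agreement in sign across the 3 lines was one-sided. Of the 75 genes, 26 were higher with G-1 in every line, where 15.4% of all genes tested were, and 4 were lower in every line, where 17.5% of all genes tested were. The libraries of each line are the only pair behind its sign. The medians per complex were 0.11 for complex I, 0.07 for complex II, 0.10 for complex III, 0.16 for complex IV and 0.11 for complex V. Corrected for GC content and gene length within the same blocked fit, the median over the 75 genes was 0.04, with 52 positive and 0 called.

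The G-1 differences had other sizes in each line, a contrast that was not tested. In 6499c4 the median difference was 0.20 and 61 of 75 genes were higher with G-1, in 6419c5 it was 0.04 with 43 higher, and in 2838c3 it was 0.09 with 55 higher. Among all genes tested 49.7% were higher in 6499c4, 48.8% in 6419c5 and 46.4% in 2838c3. All 12 tested genes of complex IV were higher with G-1 in 6499c4, against 6 in 6419c5 and 9 in 2838c3. The fitted median was 0.06 without 6499c4 and 0.17 without 6419c5. Exact 95% intervals of the read ratio, which cover counting error only, lay above 1 for 48 of the 75 genes (18% of all genes tested) and below 1 for 3 (17.8%) in 6499c4. In 6419c5 they lay above 1 for 11 (7.79%) and below 1 for 7 (8.79%), and in 2838c3 above 1 for 23 (12.7%) and below 1 for 4 (18.4%). The subunit genes had a median of 3950 reads over the 6 libraries, against 1906 for all genes tested, and these intervals narrow with the number of reads.

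**Figure D2:**
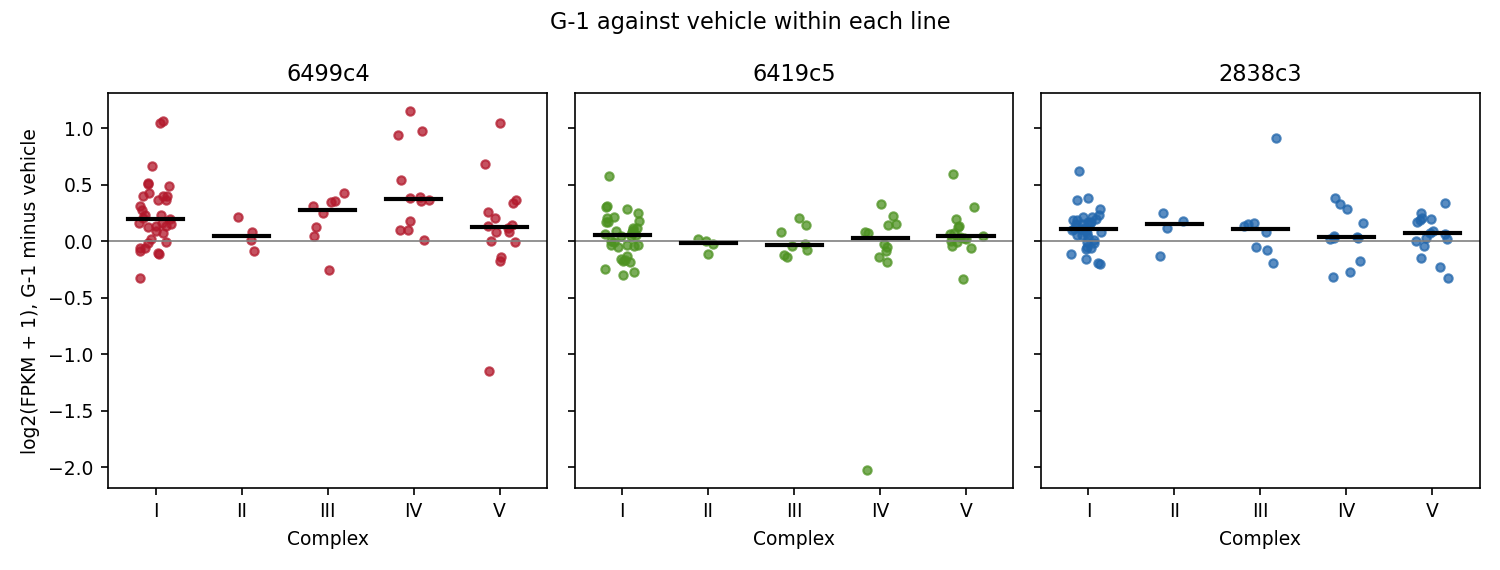
G-1 minus vehicle difference in log2(FPKM + 1) of each tested subunit gene in each line, by complex; each point is 1 gene and 1 pair of libraries, and bars are medians. Points in 6499c4 reach above 1 and the complex IV median is 0.38, while medians in the other lines stay between -0.03 and 0.15.

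Among the genes of complex I that were higher with G-1 in every line, Ndufb2, an accessory subunit of the membrane arm, had the largest difference in the line where it differed least. It stood at 68.3 FPKM with G-1 and 32.2 FPKM with vehicle in 6499c4, 28.7 and 24.0 in 6419c5, and 20.9 and 15.9 in 2838c3. Within each line the G-1 library was the higher, but the 6419c5 G-1 library lay below the vehicle library of 6499c4, so the treatment groups overlapped. The fitted difference was 0.56 ± 0.15 (SE, n = 3 lines), with a limma Benjamini-Hochberg adjusted p of 0.349. Ndufa4 had 479 and 355 FPKM in G-1 and vehicle cells of 6499c4, 274 and 242 in 6419c5 and 255 and 219 in 2838c3, a fitted difference of 0.28 ± 0.07. Again each G-1 library exceeded its own vehicle library while the groups overlapped across lines. Ndufb10, a subunit of the distal membrane arm, had a fitted difference of 0.26 ± 0.06, and Ndufb9, a LYR-motif subunit of the same arm, one of 0.18 ± 0.05. Their limma adjusted p-values were 0.343 and 0.373.

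In the other complexes, Uqcr11, a small subunit of complex III, had 255 and 215 FPKM in G-1 and vehicle cells of 6499c4, 155 and 134 in 6419c5 and 77.7 and 69.2 in 2838c3. Its fitted difference of 0.21 ± 0.05 had a limma adjusted p of 0.349, and the differences within the lines lay close together, at 0.25, 0.20 and 0.17. Cox8a, the ubiquitous form of a small subunit of complex IV, had 344 and 178 FPKM in 6499c4, 134 and 107 in 6419c5 and 118 and 105 in 2838c3. Its difference was thus far larger in 6499c4, at 0.94, than in 6419c5, at 0.33, and 2838c3, at 0.16.

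The 4 genes that were lower with G-1 in every line were Uqcrb, Ndufb3, Sdha and Atp5g2. Uqcrb, the ubiquinone-binding subunit of complex III, had 108 and 129 FPKM in G-1 and vehicle cells of 6499c4, 84.7 and 93.5 in 6419c5 and 107 and 122 in 2838c3. Its fitted difference was -0.20 ± 0.06, with a limma adjusted p of 0.363, and the treatment groups overlapped. Those of Ndufb3, a membrane-arm subunit, Sdha and Atp5g2 were -0.17 ± 0.06, -0.11 ± 0.05 and -0.18 ± 0.07. Atp5g1, which encodes the same mature c subunit as Atp5g2, had a fitted difference of 0.09 ± 0.09. Like Atp5g2 it was lower with G-1 in 2838c3, but it was higher in 6499c4 and 6419c5. None of these differences passed the threshold.

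Rises near 1 on the log2 scale were seen with G-1 in 6499c4, mostly in short genes; elsewhere Uqcrq came nearest, at 0.91 in 2838c3. Ndufb2 (455 bases), Ndufa3 (349 bases), Atp5k (292 bases), Cox5b (569 bases) and Cox8a (545 bases) differed there by 1.06, 1.05, 1.04, 0.98 and 0.94; Cox5b was named after its values were seen. The genes of low level, Cox7a1 and Atp5s, moved by 1.15 and -1.15 in 6499c4, and Cox7a1 by -2.02 in 6419c5. Ndufa3, an accessory subunit of complex I, had 196 and 94.5 FPKM in G-1 and vehicle cells of 6499c4, 135 and 108 in 6419c5 and 54.1 and 62.3 in 2838c3. Atp5k, the e subunit of ATP synthase, had 381 and 184 FPKM in 6499c4, 181 and 146 in 6419c5 and 88.7 and 104 in 2838c3. Both genes were lower with G-1 in 2838c3. Across the 75 genes, Spearman's rho between length and difference was -0.52 in 6499c4 (Pearson's r -0.50), -0.10 in 6419c5 (0.08) and 0.03 in 2838c3 (-0.01), all from the same 2 libraries per line. Over all 10748 genes tested, rho was -0.26 in 6499c4, -0.08 in 6419c5 and -0.28 in 2838c3.

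The 29 tested subunit genes of at most 600 bases had a median G-1 difference of 0.37 in 6499c4, and the 46 longer ones had 0.13. All 297 genes tested of at most 600 bases, from any pathway, had a median of 0.29 in the same line. The 10451 longer genes tested had a median of -0.003 there. In 2838c3 the short and the longer subunit genes had medians of 0.08 and 0.11, and in 6419c5 of 0.08 and 0.02. The subunit genes are short as a group, with a median length of 739 bases against 2861 bases for all genes tested. The part of gene length in the G-1 differences of 6499c4 was not tested beyond the corrected fit given above.

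**Figure D3:**
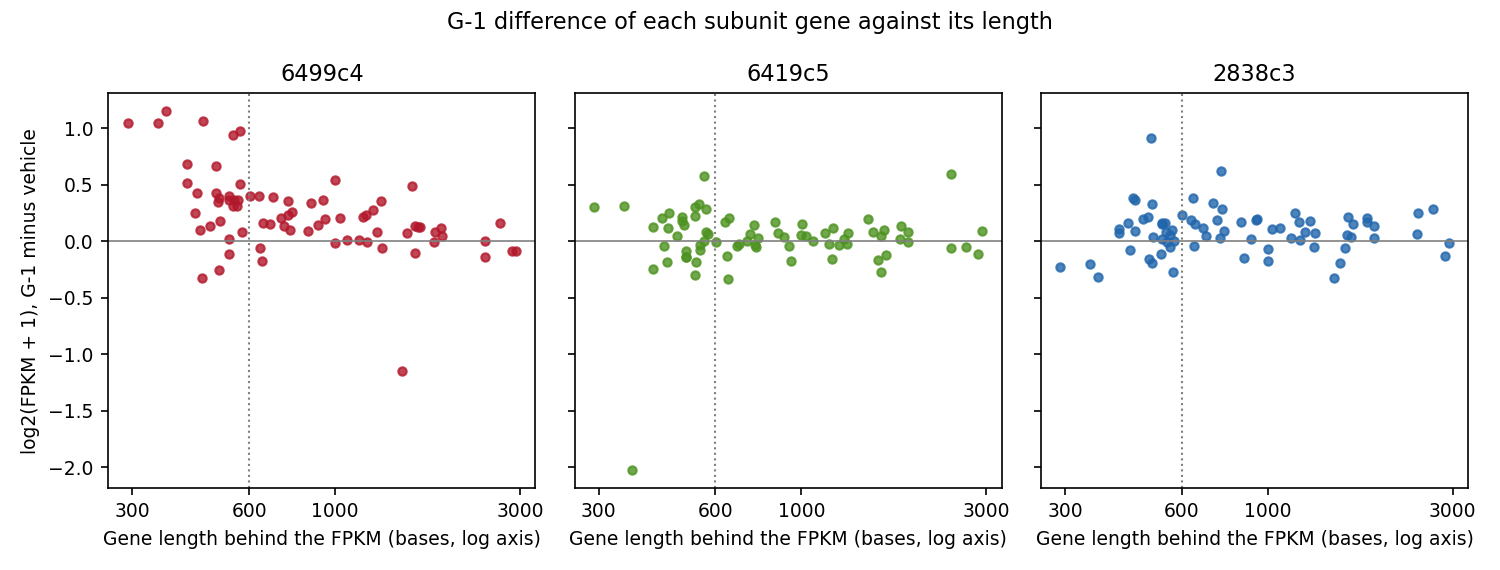
G-1 minus vehicle difference in log2(FPKM + 1) against the gene length behind the FPKM (log axis) for each tested subunit gene in each line; the dotted line marks 600 bases. In 6499c4 the rises near 1 lie left of the line, and the median is 0.37 for genes of at most 600 bases and 0.13 for longer ones.

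As among all genes tested, far more subunit genes were called between lines than between G-1 and vehicle, where 0 were. Of all genes tested, 0.0279% were called for G-1. Between lines the share was 51.5% for 6419c5 against 2838c3, 55.6% for 6499c4 against 2838c3 and 45% for 6499c4 against 6419c5. The median difference was 0.11 for G-1 and between 0.20 and 0.56 for the pairs of lines. After correction for GC content and gene length it was 0.04 for G-1 and 0.03 for 6419c5 against 2838c3. For 6499c4 it was then 0.22 against 2838c3 and 0.21 against 6419c5. 6499c4 had the highest level of most subunit genes and 2838c3 the lowest: in 46 of 75 genes both 6499c4 libraries lay above the other 4, where 21.9% of all genes tested did, and in 38 of 75 both 2838c3 libraries lay below the other 4, where 24.2% of all genes tested did. Both 6419c5 libraries were the highest for 5 genes, where 19.6% of all genes tested were. In the reverse order, 1 gene was lowest in both 6499c4 libraries (23.1% of all genes tested) and 3 were highest in both 2838c3 libraries (26%).

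Compared with 2838c3, 6499c4 had a median difference of 0.56 over the 75 genes. In limma with treatment as covariate and Benjamini-Hochberg adjustment, 56 were higher (26.6% of all genes tested) and 2 lower (28.9%), 58 in all (55.6%). By complex, 28 of 35 genes of complex I rose, 2 of 4 in complex II, 5 of 8 in complex III, 11 of 12 in complex IV and 10 of 16 in complex V. The medians were 0.68 for complex I, 0.22 for complex II, 0.46 for complex III, 0.75 for complex IV and 0.40 for complex V. After correction for GC content and gene length 35 genes were higher and 8 lower, where 2922 and 3050 of all genes tested were. The corrected median was 0.22 over the 75 genes, -0.01 for complex II and 0.22 for complex III. Of the corrected calls, 37 were shared with the uncorrected fit in the same direction. With libraries scaled by read totals, the median of all genes tested moved to 0.12, with 3688 called higher and 2402 lower in place of 2864 and 3109; the subunit genes then had 62 higher, 0 lower and a median of 0.70.

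**Figure D4:**
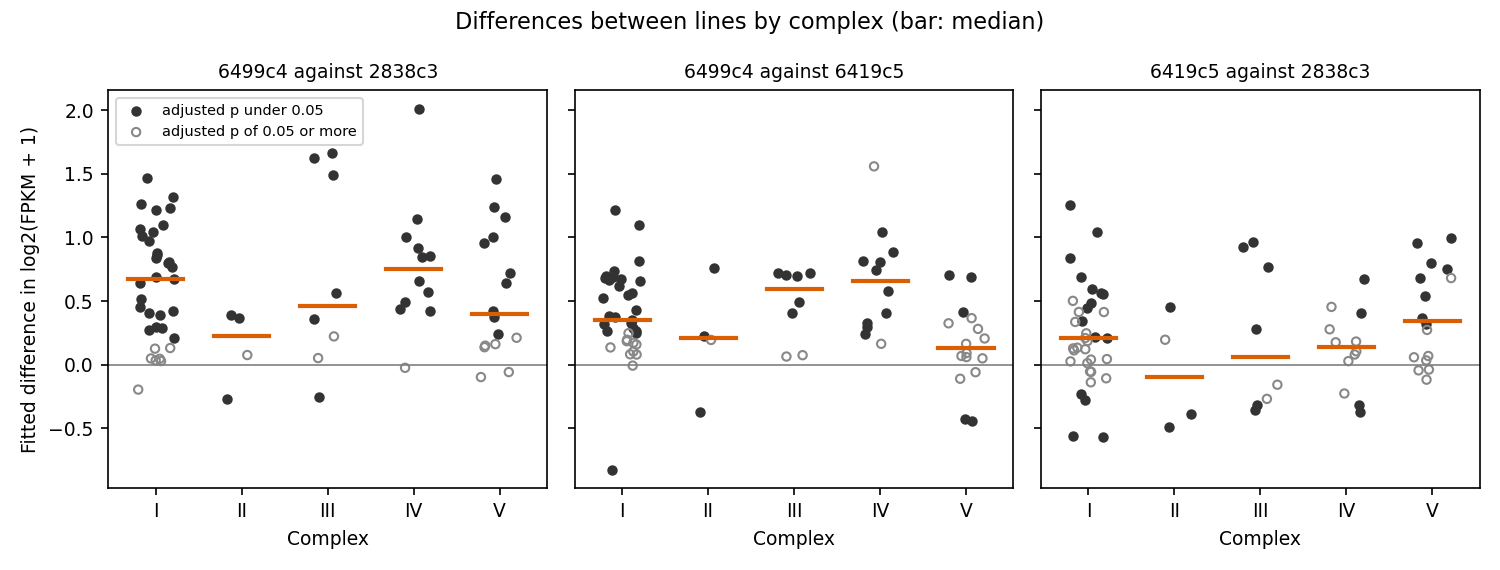
Fitted difference in log2(FPKM + 1) between lines for each tested subunit gene, by complex; filled points have a limma adjusted p under 0.05 and bars are medians. Against 2838c3, most filled points of 6499c4 lie above 0 in complexes I, III, IV and V, and the complex V median of 6499c4 against 6419c5 is 0.13.

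Apart from Cox7a1, which had few reads, the largest fitted differences between 6499c4 and 2838c3 were those of 3 small subunits of complex III. Uqcr11, with the FPKM values given above, differed by 1.66 ± 0.07 (SE, 2 libraries per line), with a limma adjusted p of 2.59e-06. Uqcrq had 315 and 248 FPKM in G-1 and vehicle cells of 6499c4, 181 and 163 in 6419c5 and 124 and 65.3 in 2838c3, a difference of 1.63 ± 0.16 between 6499c4 and 2838c3 with a limma adjusted p of 1.48e-04. Uqcr10 had 292 and 216 FPKM in 6499c4, 150 and 154 in 6419c5 and 86.4 and 90.9 in 2838c3, a difference of 1.49 ± 0.12 with a limma adjusted p of 6.31e-05. For all 3 genes the libraries fell into the order 6499c4, 6419c5, 2838c3 with no overlap between lines. The other small subunits differed less, Uqcrh, named after its values were seen, by 0.56 ± 0.10, and Uqcrb by 0.05 ± 0.07 with a limma adjusted p of 0.546. Of the larger subunits of the same complex, Uqcrc2, a core protein, differed by 0.36 ± 0.07, Uqcrfs1 by 0.22 ± 0.11, with a limma adjusted p of 0.121, and Uqcrc1, the other core protein, by -0.25 ± 0.09.

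Uqcrc1 and Sdha were the 2 genes called lower in 6499c4 than in 2838c3. Sdha had 90.2 and 95.5 FPKM in G-1 and vehicle cells of 6499c4, 76.2 and 82.6 in 6419c5 and 107 and 117 in 2838c3, and it was the only gene of complex II whose 2838c3 libraries both exceeded the other 4. Its difference between 6499c4 and 2838c3 was -0.27 ± 0.07, with a limma adjusted p of 0.0117. That of Uqcrc1 had a limma adjusted p of 0.038. The call of Sdha was lost under 4 of 16 alternatives, with adjusted p over all 16 between 0.0015 and 0.118, and that of Uqcrc1 under 8 of 16, between 0.0029 and 0.276.

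Among the other large differences, Ndufa1, an X-linked accessory subunit needed to assemble complex I, had 82.7 and 51.8 FPKM in 6499c4, 29.8 and 25.6 in 6419c5 and 21.9 and 24.4 in 2838c3. It rose by 1.46 ± 0.17 in 6499c4 over 2838c3, with a limma adjusted p of 3.04e-04. Atp5k rose by 1.46 ± 0.24, with a limma adjusted p of 0.0018. Its difference was 0.96 without the G-1 library of 6499c4, and its call was lost under 1 of 16 alternatives, robust variance moderation, with an adjusted p of 0.0758. Cox7a1 had the largest fitted difference, 2.01 ± 0.61 with a limma adjusted p of 0.025, on the few reads given above, and its call was lost under 9 of 15 alternatives, with adjusted p between 0.0015 and 0.211 over all of them. The difference of Cox7a1 was 0.85 without the G-1 library of 6499c4 and 3.17 without its vehicle library.

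Groups of subunits within a complex, chosen after the values were seen and are described without a test. The 27 tested accessory subunits of complex I had a median difference of 0.77 between 6499c4 and 2838c3, with 24 higher and 0 lower. Of all genes tested, 26.6% were higher and 28.9% lower in this comparison. In its catalytic core, 6 of the tested genes had a median of 0.22, with 3 higher and 0 lower. In complex III the 5 small subunits had a median of 1.49, with 4 higher and 0 lower, against 0.22 for Uqcrc1, Uqcrc2 and Uqcrfs1, with 1 higher and 1 lower. In ATP synthase the 5 genes of the F1 part (head and central stalk) had a median of 0.42. The 9 tested genes of its peripheral stalk and membrane part had 0.37. The accessory and small subunits are also the shorter genes, with median lengths of 635 bases for the accessory and 1317.5 bases for these core genes of complex I, and of 499 and 1656 bases for the small and the large genes of complex III. All 297 genes tested of at most 600 bases, from any pathway, had a median of 0.52 between 6499c4 and 2838c3, with 139 higher and 24 lower. After correction for GC content and gene length the group medians were 0.45 for the accessory and 0.02 for these core genes of complex I. They were 1.07 for the small and 0.02 for the large genes of complex III. In ATP synthase they were 0.22 for the F1 part and 0.08 for the peripheral stalk and membrane part.

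Ndufv1, the NADH-binding core subunit, had 111 and 101 FPKM in G-1 and vehicle cells of 6499c4, 84.2 and 102 in 6419c5 and 110 and 94.7 in 2838c3. Its libraries overlapped between all lines, and the difference between 6499c4 and 2838c3 was 0.05 ± 0.12.

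Compared with 6419c5, 6499c4 was higher for 45 genes (21.3% of all genes tested) and lower for 4 (23.7%), 49 in all (45%), with a median of 0.33. Complex IV had the largest median, 0.66, with 10 of 12 genes higher, followed by complex III at 0.59 with 6 of 8 higher and complex I at 0.35 with 24 of 35 higher and 1 lower. The median was 0.21 for complex II and 0.13 for complex V, where 3 of 16 genes were higher and 2 lower. With 1 library left out, the median ranged from 0.35 to 0.81 for complex IV and from 0.46 to 0.65 for complex III, so these ranges overlapped. Without the G-1 library of 6419c5, 23 genes were called in place of 49, and the share of all genes tested was then 24.3%. With libraries scaled by read totals, the median of all genes tested moved to 0.10, with 3102 called higher and 2024 lower in place of 2291 and 2545, and the subunit genes had 54 higher, 4 lower and a median of 0.43. After correction for GC content and gene length, 30 were higher and 5 lower, with a median of 0.21. Of all genes tested, the corrected fit called 2375 higher and 2578 lower.

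Ndufa1 and Ndufa6, a LYR-motif accessory subunit, led this comparison. Ndufa6 had 85.5 and 68.6 FPKM in G-1 and vehicle cells of 6499c4, 43.3 and 28.7 in 6419c5 and 37.5 and 35.9 in 2838c3, a difference of 1.10 ± 0.12 between 6499c4 and 6419c5 with a limma adjusted p of 3.47e-04. Ndufa1 rose by 1.22 ± 0.17. In complex IV, Cox8a rose by 1.04 ± 0.17, Cox7a2, the ubiquitous form of subunit 7a, by 0.88 ± 0.09, and Cox7b, an X-linked subunit, by 0.82 ± 0.15. Cox7a2 had 180 and 141 FPKM in 6499c4, 90.4 and 81.9 in 6419c5 and 102 and 99.7 in 2838c3, so that 6419c5 was the lowest. The calls of Cox8a, Cox7b and Ndufb2 (0.82 ± 0.18) were lost without the G-1 library of 6419c5, where their limma adjusted p-values were 0.0534, 0.0637 and 0.131. Without the vehicle library of 6419c5 the call of Cox7b was lost too, at 0.0534. Without the G-1 library of 6499c4 the differences of Cox8a, Cox7b and Ndufb2 were 0.69, 0.54 and 0.44.

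Atp5o and Atp5j, of the peripheral stalk of ATP synthase, were lower in 6499c4 than in 6419c5. Of the 9 tested genes of its peripheral stalk and membrane part, 3 were higher and 2 lower, beside 21.3% and 23.7% of all genes tested. Exons of Atp5o shared 43.8% of their bases with other genes, and those of Atp5j 12.7%, with Gabpa foremost. Gabpa differed by -0.87 ± 0.11 in the same comparison, and whether shared exons bear on these values was not tested. Atp5o, the oligomycin sensitivity-conferring protein, had 316 and 264 FPKM in G-1 and vehicle cells of 6499c4, 396 and 387 in 6419c5 and 252 and 237 in 2838c3. Atp5j, coupling factor 6 of the same stalk, had 168 and 152 FPKM in 6499c4, 217 and 211 in 6419c5 and 124 and 122 in 2838c3. In both, each 6419c5 library exceeded the other 4, and 6499c4 lay between. Their differences between 6499c4 and 6419c5 were -0.44 ± 0.08 and -0.42 ± 0.07, with limma adjusted p-values of 0.0033 and 0.0023. Sdhb differed by -0.37 ± 0.07. Without the vehicle library of 6419c5 the calls of Atp5o and Sdhb were lost, with adjusted p-values of 0.055 and 0.0507. Sdhd, a membrane anchor of the same complex II, rose by 0.76 ± 0.07.

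Ndufb4 fell furthest in 6499c4 against 6419c5, at -0.83 ± 0.13, with a limma adjusted p of 0.0018. It had 14.6 and 18.5 FPKM in G-1 and vehicle cells of 6499c4, 31.2 and 28.7 in 6419c5 and 12.4 and 11.6 in 2838c3, so it was highest in both 6419c5 libraries. An annotated pseudogene, Ndufb4c, is identical to its coding sequence.

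Compared with 2838c3, 6419c5 was higher for 27 of 75 genes (26.2% of all genes tested) and lower for 10 (25.3%), 37 in all (51.5%), with a median of 0.20. The share called in all was near that of all genes tested, with more of the calls upward. Complex V had the largest median, 0.35, with 8 of 16 genes higher and 0 lower. Complex I had a median of 0.21, with 12 higher and 4 lower, complex III 0.06 with 4 higher and 2 lower, complex IV 0.14 with 2 higher and 2 lower, and complex II -0.10 with 1 higher and 2 lower. After correction for GC content and gene length the median over the 75 genes was 0.03, with 21 higher and 15 lower. The corrected fit called 2898 of all 10748 genes tested higher and 2763 lower. The corrected medians of complexes III and IV turned to -0.08 and -0.07. The complex III median was also -0.01 without the vehicle library of 6419c5. Without the vehicle library of 6419c5, 22 genes were called in place of 37, and the share of all genes tested was then 31.9%.

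Ndufb4 rose by 1.25 ± 0.13 in 6419c5 over 2838c3, Ndufa3 by 1.05 ± 0.24, Atp5g1 by 1.00 ± 0.11 and Uqcr11 by 0.97 ± 0.07. Atp5d, the delta subunit of the F1 part, rose by 0.96 ± 0.10 and Uqcrq by 0.92 ± 0.16. Atp5g1 had 99.7 and 78.5 FPKM in G-1 and vehicle cells of 6499c4, 81.1 and 76.8 in 6419c5 and 37.0 and 41.1 in 2838c3, so that 2838c3 stood apart below the other lines, which overlapped. The call of Ndufa3 was lost under 4 of 16 alternatives, with adjusted p over all 16 between 1.35e-05 and 0.138. Its difference was 0.61 without the G-1 library of 2838c3, and that of Uqcrq was 0.59 without the vehicle library of 2838c3.

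Sdha and Sdhd fell together in 6419c5 against 2838c3 while Sdhb rose, by -0.49 ± 0.07, -0.39 ± 0.07 and 0.45 ± 0.07, with limma adjusted p-values of 8.57e-04, 0.0036 and 0.0015. Sdhb had 116 and 114 FPKM in G-1 and vehicle cells of 6499c4, 149 and 149 in 6419c5 and 114 and 104 in 2838c3, and Sdhd had 157 and 149, 90.6 and 89.4, and 126 and 111 in the same order. Subunits of the same 4-protein enzyme thus took opposite orders between these lines, with no overlap between 6419c5 and the other lines for either gene. Sdhc, the other membrane anchor, differed by 0.20 ± 0.09, with a limma adjusted p of 0.0933. The remaining large falls were Ndufb8, a membrane-arm subunit, at -0.57 ± 0.12, Ndufs6, a zinc-binding accessory subunit, at -0.56 ± 0.10, Cox5a, a matrix-side subunit of complex IV, at -0.37 ± 0.10 and Uqcrb at -0.36 ± 0.07. The calls of Ndufb8, Cox5a and Uqcrb were lost under 1, 4 and 1 of 16 alternatives, with highest adjusted p-values of 0.0969, 0.208 and 0.0504. The difference of Ndufb8 was -0.33 without the G-1 library of 2838c3.

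Promoters are shown for 3 genes that stood at opposite ends of the order between the lines: Sdha, lowest in 6419c5 and highest in 2838c3, and Uqcr10 and Uqcr11, highest in 6499c4 and lowest in 2838c3. Each sequence runs from 250 bases before to 50 after the start, read on the strand of the gene, and comes from RefSeq on GRCm38.p6: Sdha at chr13:74350191-74350490, Uqcr10 at chr11:4704295-4704594 and Uqcr11 at chr10:80406772-80407071, all on the minus strand. Capitals mark matches to the palindromic NRF1 motif, to CCGGAAG (ETS and GABP) and to CCAAT, searched on both strands, so that the CCAAT matches here read in reverse as ATTGG.
Sdha: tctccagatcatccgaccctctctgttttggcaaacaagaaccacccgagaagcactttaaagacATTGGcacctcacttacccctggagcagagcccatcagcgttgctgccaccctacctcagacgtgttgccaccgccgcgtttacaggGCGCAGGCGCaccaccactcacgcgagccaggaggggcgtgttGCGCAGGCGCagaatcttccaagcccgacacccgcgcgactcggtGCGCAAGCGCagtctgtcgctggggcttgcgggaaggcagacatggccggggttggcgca
Uqcr10: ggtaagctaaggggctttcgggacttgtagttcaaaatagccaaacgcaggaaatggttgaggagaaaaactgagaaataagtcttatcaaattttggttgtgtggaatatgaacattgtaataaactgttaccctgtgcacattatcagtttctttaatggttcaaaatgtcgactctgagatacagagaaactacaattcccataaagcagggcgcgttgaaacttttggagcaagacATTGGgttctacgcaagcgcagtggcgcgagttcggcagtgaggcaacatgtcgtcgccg
Uqcr11: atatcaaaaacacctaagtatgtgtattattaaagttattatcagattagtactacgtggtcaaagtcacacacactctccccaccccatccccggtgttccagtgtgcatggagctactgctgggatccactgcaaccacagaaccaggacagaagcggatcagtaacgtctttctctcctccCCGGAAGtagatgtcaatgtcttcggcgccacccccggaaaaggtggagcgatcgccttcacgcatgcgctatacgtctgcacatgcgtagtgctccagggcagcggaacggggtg

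The Sdha promoter held 3 matches to the NRF1 motif, starting at bases 153, 196 and 241 of the sequence. That of Uqcr10 held 1 CCAAT match and that of Uqcr11 held 1 ETS match. A RefSeq promoter was found for 69 of the 84 genes, 64 of them tested. The NRF1 motif, that of a transcription factor long tied to nuclear genes of the chain, was in 16 of these 64 (25.0%) and in 12.5% of the 8602 promoters of all genes tested. The YY1 motif AAGATGGCG was in 8 (12.5%) against 4.0%. TCAAGGTCA, the motif of oestrogen-related receptors, was in 2 (3.1%), those of Atp5g3 and Sdhd, against 0.31%. CCGGAAG was in 15 (23.4%) against 22.3% and CCAAT in 28 (43.8%) against 43.2%. CCGGAAG ends in the letters with which AAGATGGCG starts, so matches to both can share bases, and 1 promoter may hold several motifs. These are matches of letters, not measured binding sites.

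Genes that work with the subunits were counted from lists written with earlier results known. Under G-1, 0 members of any of these lists were called in limma. Of 45 tested assembly factors, 20 were higher (26.6% of all genes tested) and 1 lower (28.9%) in 6499c4 than in 2838c3, with a median of 0.33. The largest rises were those of Sdhaf1, a factor for succinate dehydrogenase, at 1.46 ± 0.17, and Coa3, a factor for cytochrome c oxidase, at 1.30 ± 0.09. Of 12 tested chain components outside the symbol rule, 8 were higher and 1 lower, beside the same shares of all genes tested, with a median of 0.40. Etfb, a subunit of the electron transfer flavoprotein, rose by 2.25 ± 0.07 and Cyc1, the cytochrome c1 of complex III, by 0.31 ± 0.08.

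The tricarboxylic acid cycle list, with 17 genes tested, had 8 higher (26.6% of all genes tested) and 1 lower (28.9%) and a median of 0.15, and the mitochondrial carriers list, also with 17 tested, had a median of 0.14. The 18 tested transcriptional regulators of the chain went both ways in 6499c4 against 2838c3, with 7 higher (26.6% of all genes tested) and 5 lower (28.9%) and a median of 0.09. Tfam, which helps to maintain and transcribe the mitochondrial genome, rose by 0.84 ± 0.09 and Esrra, an oestrogen-related receptor, by 0.80 ± 0.12. Pprc1, a coactivator related to PGC-1 alpha, fell by 0.80 ± 0.08, and Gabpa, the DNA-binding part of GABP, by 0.38 ± 0.10. Nrf1 differed by -0.16 ± 0.11, with a limma adjusted p of 0.251. Ppargc1a, which encodes PGC-1 alpha, and Ppargc1b had means of 0.79 and 0.34 FPKM and were not tested.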

How the data were processed

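The members, the other gene lists and the tests were chosen with earlier results of these data known. RNA from 6 cell-line libraries was deposited by the authors as 1 table of FPKM values for 24421 gene symbols. Per the submitters' processing notes, STAR and DESeq2 were among the tools; their roles, the build, annotation, strand and counting rule are unstated in the labels. The deposited FPKM move in equal steps: in all 15712 genes above 0, values were whole reads within 0.01 reads, on a scale proportional to median-of-ratios size factors (read totals deviated by up to 10.2%). Gene lengths follow from the steps, and 99.0% came within 0.1 of a whole base after 1 scale factor of 0.993 for all genes.

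The 10748 genes averaging at least 1 FPKM were analysed as log2(FPKM + 1) in limma 3.58.1 (R 4.3.3), with a variance trend, lines and treatment in 1 fit (2 residual and 5.35 prior degrees of freedom), two-sided, and Benjamini-Hochberg adjustment over all genes tested. Fold changes on this scale understate those of low genes. The lines pair the libraries by design; deviations from group means correlated at 0.882, 0.871 and 0.906 in 6499c4, 6419c5 and 2838c3. Alternatives changed the pseudocount, level filter, variance moderation, scaling, test (limma-voom on recovered reads), GC content and length correction (splines per library), block and libraries. The fits and the read recovery were tested on simulated data. Coding sequences were aligned to all GENCODE M21 transcripts with BLAST 2.17.0, and promoter sequences are RefSeq's (GRCm38.p6). Genes named with values were the highest and lowest of each complex, up to 6 per direction with the same G-1 sign in all lines, up to 6 called genes per direction and line pair, and examples marked as chosen later. One gene was kept in all models and in the list counts but is not reported here.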

Additional observations from a re-analysis of the deposited data

Results flagged for a closer look

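For 6 genes the exact 95% counting intervals of the G-1 to vehicle read ratio excluded 1 in opposite directions in different lines, with 1 library per line and treatment. How many of all genes tested met the same rule was not counted, so the 6 cannot be read as a trait of the subunit genes. The difference between lines was not tested for any of them, and counting intervals cover no spread between cultures. Cox5b, a subunit of complex IV, had a ratio of 1.98 in 6499c4 and 0.827 in 2838c3. Cox7b had 1.46 in 6499c4 and 0.884 in 2838c3. The ratio of Cox6b1 was 1.13 in 6499c4 and 0.907 in 6419c5. Ndufv1 stood at 1.10 in 6499c4, 0.825 in 6419c5 and 1.16 in 2838c3. Atp5a1, the alpha subunit of the F1 head, was at 0.961 in 6419c5 and 1.05 in 2838c3. Cox7a1 had a ratio of 2.63 in 6499c4, on 23 and 10 reads with G-1 and vehicle, and 0 in 6419c5, on 0 and 8 reads.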

How the results depend on the processing

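The G-1 comparison called 0 subunit genes in limma under every alternative run, including the fit with no replicate block, except limma-voom, which called 6. With GC content and length correction its medians were 0.033, 0.016, 0.036, 0.063 and 0.043 for complexes I to V, and with quantile scaling that of complex V was 0.061. Without 1 line, medians ranged from 0.061 to 0.17 over all subunit genes, and from 0.066 to 0.18, 0.028 to 0.099, 0.0091 to 0.17, 0.070 to 0.21 and 0.050 to 0.10 for complexes I to V; the lowest was without 6499c4, except in complex II, where it was without 2838c3.

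For 6419c5 against 2838c3, GC content and length correction gave medians of 0.027 for all subunit genes and 0.027 for complex I, -0.075 for complex III and -0.066 for complex IV, both a change of sign, and 0.21 for complex V; the cause was not tested. The complex I median was 0.21 with pseudocounts of 0.1 and 0.01, 0.20 with quantile scaling and 0.24 with read totals. That of complex IV was 0.093 with either pseudocount, 0.10 with a filter of 5 FPKM and with core subunits only, 0.13 with quantile scaling, 0.17 with read totals and 0.16 with limma-voom. Quantile scaling gave 0.26 for complex V, and over all subunit genes read totals gave 0.22 and limma-voom 0.21. Without 1 library, calls ranged from 22 to 45, the median over all subunit genes from 0.14 to 0.23, and those of complexes I, III, IV and V from 0.14 to 0.21, -0.0071 to 0.13, 0.0039 to 0.26 and 0.33 to 0.41.

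For 6499c4 against 2838c3, GC content and length correction gave 0.22 over all subunit genes, 0.37 for complex I, -0.00672 for complex II, a change of sign whose cause was not tested, 0.22 for complex III, 0.32 for complex IV and 0.20 for complex V. Read totals gave 0.70 over all subunit genes and 0.81, 0.36, 0.59 and 0.53 for complexes I, II, III and V. Without 1 library, medians ranged from 0.46 to 0.69 over all subunit genes, and from 0.62 to 0.77, 0.40 to 0.57 and 0.49 to 0.82 for complexes I, III and IV.

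For 6499c4 against 6419c5, the corrected medians were 0.42 for complex III and 0.054 for complex V. Read totals gave 0.31 for complex II and 0.23 for complex V, quantile scaling 0.19, no filter 0.16 and a filter of 5 FPKM 0.091 for complex V. Without 1 library, calls ranged from 23 to 49 and the complex V median from 0.075 to 0.13. Of the other comparisons of a count or median with its alternatives, 397 stayed within 1.5 times of the count or within the spread of the median. Of the tested subunit genes, Cox7a1 had the fewest reads, 44 over 6 libraries.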
